A study of Arabidopsis thaliana with 14 samples.

Results

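The middle of FLC intron 1 was taken as all nucleosomal fragments with a midpoint 1000 to 2399 bp downstream of the FLC transcription start site (TSS), which is chr5:3177049-3178448 of TAIR10 with the gene read from the minus strand. The stretch spans 1400 bp of an intron of 3493 bp and lies between exon 1, which starts at the TSS at 3179448 and ends at 3179155, and exon 2, whose first base is at 3175661. On the other strand, the annotated antisense RNAs (COOLAIR) that run across the stretch have no annotated exon inside. Its members were 157038 of the 1039765 distinct fragments listed over the 14 libraries, with 2096 to 18473 per library. In all 14 libraries together they had 35993 different pairs of start and end.

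FLC encodes a MADS-box transcription factor that represses flowering, and a functional FRIGIDA (FRI) allele keeps its expression high until winter. Prolonged cold silences FLC through Polycomb in the process called vernalisation, and the long first intron of the gene is known for elements that this silencing needs, among them the source of the sense noncoding RNA COLDAIR. VRN1 is a plant-specific protein with B3 DNA-binding domains that binds DNA without strict sequence preference and is needed for stable repression of FLC. A nucleosome is DNA wrapped around a histone core, and micrococcal nuclease (MNase) digests the DNA that no core protects, so the 2 ends of a fragment give the borders of the protected DNA and its midpoint the centre.

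The libraries were prepared from whole seedlings, with 1 pool of plants per biological replicate, and enriched for target loci by bait hybridisation in one shared reaction. Both genotypes carry the active FRI allele from San Feliu-2 in Col-0, which is needed for high FLC, and neither is a plain Col-0 control. The groups were vrn1-4 FRI after 1 further week at 5 °C (1W cold, 4 libraries), vrn1-4 FRI grown for 10 days at 22 °C (warm, 3 libraries), WT FRI 1W cold (4 libraries) and WT FRI warm (3 libraries). The cold-treated seedlings were thus older by 1 week. A single mutant allele was used, and neither VRN1 itself nor markers of the tissue could be checked, because only FLC fragments were analysed here. The values are the fraction of all FLC fragments of 100 to 150 bp that share a start and end, so every share depends on the total over FLC, and a gain or loss along the entire gene leaves no trace in them. Only fractions were given, without totals, and precision rests on the spread between libraries. The smallest frequency of a library, that of a fragment seen once if there was any, is a guide to depth. It was 0.00209% in WT FRI warm replicate 2, 0.000817% in WT FRI warm replicate 1 and at most 0.000367% in any other library. By this guide those 2 libraries were the shallowest. Counting each distinct fragment once, as done below, depends on depth. WT FRI warm replicates 1 and 2 had the fewest distinct fragments in the stretch, 4348 and 2096, against 13646 in WT FRI warm replicate 3.

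Fragments in the stretch clustered in a block 1400 to 1699 bp from the TSS, which held 56.5 to 66.4% of them. Of the 97 bins of 100 bp along FLC, the bin 1500-1599 bp ranked 3rd, the bin 1600-1699 bp 4th and the bin 1400-1499 bp 8th in share, at 3.82, 3.74 and 2.4% of FLC fragments (averages of the 4 group means). The median bin of FLC held 0.743%. At the other end, the bin 2000-2099 bp held 0.113% and ranked 90th, and none of the bins from 1800 to 2299 bp reached the median. The plot of midpoints by distance shows these dense and sparse parts in all 4 groups.

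**Figure D1:**
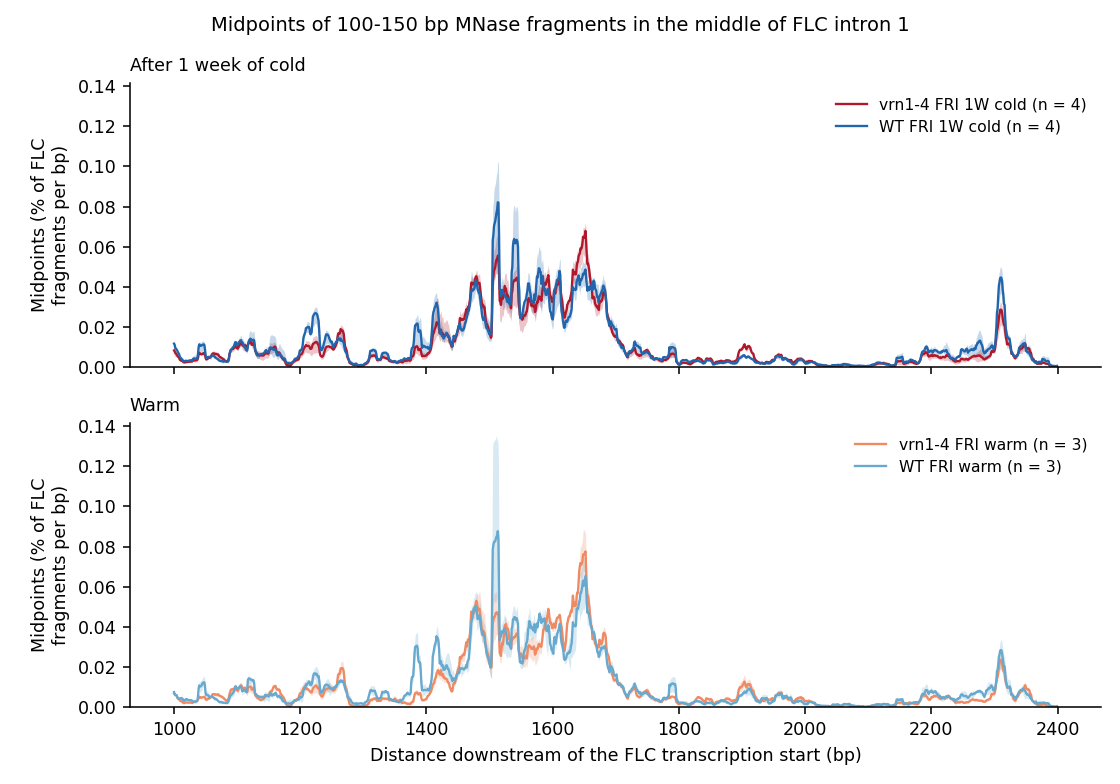
Midpoints of fragments of 100 to 150 bp by distance from the FLC TSS in bp, after 1 week of cold (top) and in the warm (bottom), in percent of FLC fragments per bp, averaged over 11 bp. Lines are group means and bands run from the lowest to the highest library. The block from 1400 to 1699 bp stands out in each group, and the bin 2000-2099 bp is almost empty.

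The sequences below are those of the 2 most frequent protected positions that do not nest in each other. They are read 5′ to 3′ on the gene strand from the TAIR10 sequence, with capitals for a tandem repeat that lies in the block. The first fragment is chr5:3177866-3178010, the most frequent of the 241708 distinct fragments of FLC, and the other is chr5:3177738-3177885, the 7th most frequent.
fragment at 1510 bp: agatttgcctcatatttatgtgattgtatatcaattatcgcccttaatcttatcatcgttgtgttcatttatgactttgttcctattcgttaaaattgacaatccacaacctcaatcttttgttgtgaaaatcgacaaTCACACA
fragment at 1636 bp: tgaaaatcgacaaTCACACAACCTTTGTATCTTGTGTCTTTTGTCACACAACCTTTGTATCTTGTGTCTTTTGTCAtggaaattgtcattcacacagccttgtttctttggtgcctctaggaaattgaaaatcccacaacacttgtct

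The fragment of 145 bp centred 1510 bp from the TSS averaged 0.156% of FLC fragments over the 4 group means. Its share was 0.121, 0.141, 0.104 and 0.0999% in vrn1-4 FRI 1W cold and 0.0738, 0.0933 and 0.0976% in vrn1-4 FRI warm. In WT FRI 1W cold it was 0.0953, 0.207, 0.324 and 0.292%, and in WT FRI warm 0.284, 0.0919 and 0.20%. WT FRI 1W cold replicate 1 and WT FRI warm replicate 2 thus lay among the mutant libraries, and the other WT FRI libraries lay above all of them. The fragment of 143 bp from 3177868 to 3178010, nested in it and 4th in FLC, averaged 0.104% and ranged from 0.0300 to 0.303%. The fragment of 148 bp centred at 1636 bp averaged 0.0969%. It had 0.0919, 0.0978, 0.0938 and 0.109% in vrn1-4 FRI 1W cold and 0.103, 0.0575 and 0.111% in vrn1-4 FRI warm. WT FRI 1W cold libraries had 0.0856, 0.0915, 0.0960 and 0.144% and WT FRI warm libraries 0.106, 0.0209 and 0.157%, so all groups overlapped. These 3 fragments were chosen for their frequency, and their values were not tested.

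The capitals belong to 2 copies of a sequence of 33 bp, 1576-1608 and 1606-1638 bp from the TSS (chr5:3177810-3177872), whose starts are 30 bp apart. It was the longest exact direct repeat of the FLC target region, where the next ones were 21 bp long.
repeat unit: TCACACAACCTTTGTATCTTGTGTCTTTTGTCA
The copies overlap by a few bases, and the fragment at 1636 bp contains both of them in full. The part of the repeat in the frequencies was not tested.

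Smoothed over 11 bp, the profile averaged over the groups had 10 maxima at least 120 bp apart, at 1098, 1224, 1385, 1513, 1652, 1777, 1904, 2062, 2187 and 2310 bp. The spacing between neighbours was 123 to 161 bp. The 2 highest, at 1513 and 1652 bp, were 139 bp apart in this averaged profile, less than the 145 bp of the leading fragment. Within 40 bp of 1513 bp, the highest point lay at 1479 to 1484 bp in the vrn1-4 FRI warm libraries. It lay at 1511 to 1514 bp in the libraries of the other groups. Within 40 bp of 2310 bp, the highest point of every library lay at 2307 to 2311 bp. Around 1652 bp it lay at 1652 bp in the 4 vrn1-4 FRI 1W cold libraries and at 1649 to 1652 bp in vrn1-4 FRI warm. It lay at 1612 to 1652 bp in WT FRI 1W cold, where 1612 bp is the edge of the searched window, and at 1641 to 1652 bp in WT FRI warm. Over the whole bin 1600-1699 bp, the highest point was at 1641 bp in WT FRI 1W cold replicate 1 and at 1611 bp in replicates 2, 3 and 4. The other groups had the same ranges as in the window.

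Within the bin 1200-1299 bp the highest point lay at 1264 to 1266 bp in all 7 vrn1-4 FRI libraries and at 1212 to 1227 bp in all 7 WT FRI libraries. With lengths of 120 to 150 bp only, the highest points were at 1207 to 1225 bp in vrn1-4 FRI and 1212 to 1229 bp in WT FRI, and the groups overlapped. They also overlapped with each distinct fragment counted once, at 1213 to 1261 bp in vrn1-4 FRI and 1211 to 1268 bp in WT FRI. The bin was singled out after its values were seen, so no test was made.

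The base composition of the stretch was close to that of the rest of FLC. Its 14 bins held 26 to 42% G and C, with a median of 33%, against a median of 32% over the other 81 bins that lie whole inside the target region. In those other bins a higher G and C content went with a higher share (Pearson's r of 0.61 and Spearman's rho of 0.58 across bins, which share their libraries and are not replicates). Across the 14 bins of the stretch r was 0.01 and rho -0.11. The dense bin 1500-1599 bp held 33% G and C, and the sparse bins 1800-1899 and 1900-1999 bp held 42 and 40%. Runs of 5 or more A or T, which are known to resist bending around histones, occurred in 5 of 14 bins of the stretch (35.7%) and 58.0% of the other bins, on either strand. None of the 3 bins of the dense block had one. The motif TGCATG, an RY element read by B3 domains of other plant proteins, occurred in 0 of the 14 bins and in 3.16% of the 95 whole bins, on both strands.

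The ends of the fragments were rich in A and T. The outermost base of the fragments in the stretch was A or T in 88.2 to 93.6% of ends over the 14 libraries, weighted by frequency, where the stretch itself is 66.7% A and T. The base just outside the ends was A or T in 71.3 to 78.1%. By group this was 72.2 to 78.1% in vrn1-4 FRI 1W cold and 71.5 to 74.0% in vrn1-4 FRI warm. In WT FRI it was 75.7 to 78.1% after cold and 71.3 to 74.1% in the warm. MNase is known to prefer cutting next to A and T, and its part in these shares was not tested. Fragments as a whole held 33.7 to 35% G and C against 33.3% in the stretch.

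The bins below are shown because the genotypes differed in them or, for 2000-2099 bp, because it was the emptiest. They are the gene strand of TAIR10, 5′ to 3′, with runs of 5 or more A or T in capitals, at chr5:3178049-3178148, chr5:3177549-3177648, chr5:3177349-3177448 and chr5:3177149-3177248.
bin 1300-1399 bp: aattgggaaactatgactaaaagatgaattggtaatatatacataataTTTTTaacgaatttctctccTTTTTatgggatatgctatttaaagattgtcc
bin 1800-1899 bp: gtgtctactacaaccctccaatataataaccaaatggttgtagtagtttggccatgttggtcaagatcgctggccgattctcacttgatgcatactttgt
bin 2000-2099 bp: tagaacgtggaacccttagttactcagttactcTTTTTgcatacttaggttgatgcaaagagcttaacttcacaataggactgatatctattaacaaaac
bin 2200-2299 bp: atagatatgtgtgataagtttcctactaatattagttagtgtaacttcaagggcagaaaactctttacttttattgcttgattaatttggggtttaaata

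Compared with its neighbours inside intron 1, the stretch was denser, its fragments were longer and their midpoints more unevenly spread. Density was 1.01 to 1.27% of FLC fragments per 100 bp, against 0.755 to 1.00% from 380 to 1000 bp and 0.899 to 1.16% from 2400 bp to the end of the intron. The log2 difference was 0.42 against the start of the intron and 0.16 against its 3′ part, with the stretch denser in 14 of 14 libraries in both cases (exact sign-flip permutation test, adjusted p = 0.000183, from p = 0.000122, the smallest that 14 libraries allow). Mean fragment length exceeded that of the start of the intron by 1.75 bp (14 of 14 libraries, same exact test, adjusted p = 0.000183) and that of the 3′ part by 0.689 bp (13 of 14, adjusted p = 0.000293). Positional contrast, the SD of the shares of 20-bp bins divided by their mean, was 1.01 to 1.29 in the stretch. It was higher by 0.217 than at the start of the intron (12 of 14 libraries, exact permutation test, adjusted p = 0.000732) and by 0.214 than in the 3′ part (14 of 14, adjusted p = 0.000183). With each distinct fragment counted once irrespective of its frequency, the density differences were 0.01 (exact permutation p = 0.511) and -0.02 (p = 0.0875). The higher density of the stretch as a whole was thus seen in the frequencies and not in the number of different fragments. The contrast with the start of the intron (0.00305, p = 0.895) and the length with its 3′ part (0.0523 bp, p = 0.524) were also lost in this way, in the same exact tests. The length difference with the start of the intron was 0.163 bp (exact p = 0.0413) and the contrast with the 3′ part 0.126 (exact p = 0.000122) when counted so.

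No difference in the total share of the stretch passed the test. The share was 15.9, 16.0, 15.5 and 14.2% of FLC fragments in vrn1-4 FRI 1W cold and 14.1, 16.2 and 15.3% in vrn1-4 FRI warm. WT FRI 1W cold libraries had 15.4, 17.0, 17.8 and 17.4% and WT FRI warm libraries 17.3, 15.5 and 16.1%. For comparison, the stretch is 14.6% of the length of the target region. The means were 15.4 ± 0.813% (SD, n = 4) in vrn1-4 FRI and 16.9 ± 1.03% (n = 4) in WT FRI after cold, a difference of -1.52 percentage points (two-sided exact permutation test, p = 0.114, 0.429 adjusted over the 15 tests of the library measures). In the warm, the means were 15.2 ± 1.03% in vrn1-4 FRI and 16.3 ± 0.895% in WT FRI (SD, n = 3 each), a difference of -1.08 points (exact permutation test, p = 0.3, where 3 against 3 cannot go below 0.1). As a share of intron 1 in place of FLC, the genotype differences turned positive, to 0.869 points after cold and 1.17 points in the warm. Cold against warm differed by 0.165 points in vrn1-4 FRI (exact p = 0.8) and 0.606 points in WT FRI (exact p = 0.429). Without WT FRI 1W cold replicate 1 the genotype difference after cold was -2.01 points (exact permutation p = 0.0286, unadjusted).

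Fragments in the stretch were shorter in vrn1-4 FRI than in WT FRI after cold, and in WT FRI they were longer after cold than in the warm, but neither difference passed the adjustment. Mean length was 127.7, 127.4, 129.3 and 125.8 bp in vrn1-4 FRI 1W cold and 126.3, 123.5 and 126.6 bp in vrn1-4 FRI warm. It was 131.2, 133.5, 133.0 and 132.7 bp in WT FRI 1W cold and 129.0, 125.7 and 130.7 bp in WT FRI warm. All 4 WT FRI 1W cold libraries lay above all other libraries. After cold the difference between genotypes was -5.07 bp (exact permutation test, p = 0.0286, the smallest this design allows, 0.214 adjusted over the 15 tests). With each distinct fragment counted once it was -2.12 bp, and the difference with cold in WT FRI 2.33 bp (exact permutation p = 0.0286 for both, unadjusted). Cold against warm differed by 2.10 bp in vrn1-4 FRI (exact permutation p = 0.143) and by 4.14 bp in WT FRI (exact permutation p = 0.0286, 0.214 adjusted). The change with cold was not shown to differ between genotypes (-2.04 bp, permutation of genotype labels within each temperature, p = 0.501).

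**Figure D2:**
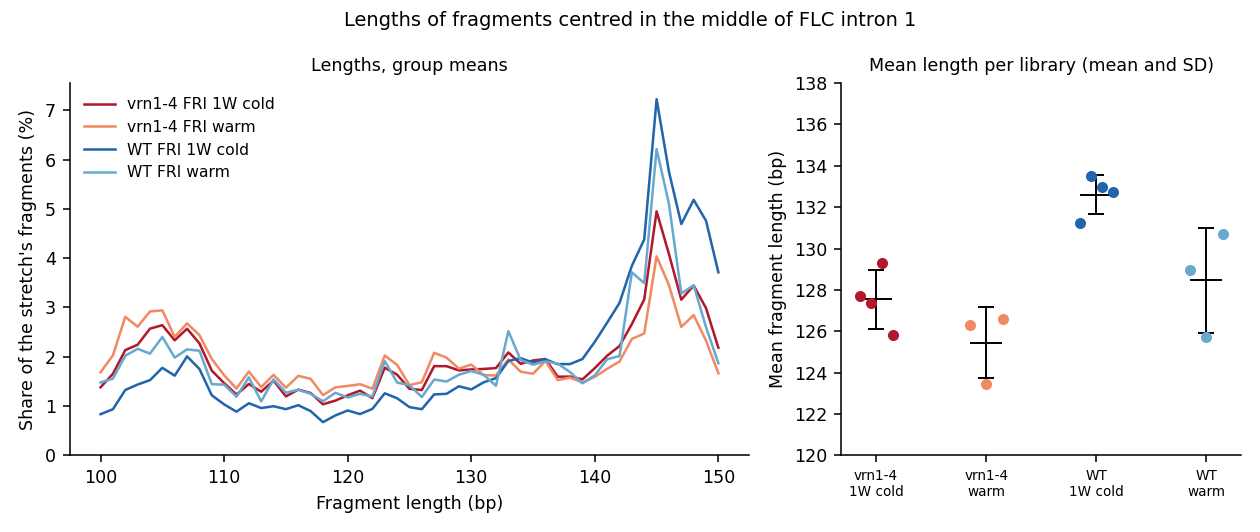
Left, share of the stretch's fragments at each length from 100 to 150 bp as group means in percent. Right, mean fragment length in bp in each library (points) with the group mean and SD, on an axis that starts at 120 bp. All groups peak at 145 bp, and the 4 WT FRI 1W cold libraries are the longest.

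In all 14 libraries 145 bp was the most frequent length in the stretch, and what differed was the weight of long against short fragments. Fragments of 140 to 150 bp made up 27.8 to 37.8% of the stretch in vrn1-4 FRI 1W cold, 21.6 to 30.0% in vrn1-4 FRI warm, 44.1 to 50.4% in WT FRI 1W cold and 27.7 to 41.2% in WT FRI warm. Those of 100 to 119 bp made up 31.0 to 38.1%, 36.5 to 44.1%, 22.0 to 27.4% and 27.0 to 39.6% in the same order of groups. Relative to the rest of FLC in the same library, the fragments of the stretch were shorter by 0.359 to 1.29 bp in all 7 vrn1-4 FRI libraries. In WT FRI they differed from the rest of FLC by -0.557 to 0.690 bp and were longer in 6 of 7 libraries. This difference was noticed in the values and was not tested. The extent of MNase digestion also sets fragment length, and its part in these differences was not tested.

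By bin, lengths differed along nearly all of FLC and not in the stretch alone. The limma p-values borrow their spread across bins that moved together in each library, so they overstate the evidence. Per library, the exact permutation test above gave an adjusted p of 0.214 for genotypes after cold and for cold in WT FRI. After cold, vrn1-4 FRI fragments were shorter than WT FRI fragments in all 14 bins (limma, adjusted p of 9.4e-05 to 0.0425), where 90.7% of the 97 bins of FLC passed. The largest of these differences was in the bin 1200-1299 bp, with means of 124.7, 124.7, 127.1 and 121.8 bp in vrn1-4 FRI 1W cold against 129.3, 132.3, 132.2 and 131.9 bp in WT FRI 1W cold (-6.87 ± 1.41 bp, SE). The bin 2200-2299 bp had 122.5, 123.0, 125.2 and 120.6 bp against 128.4, 129.5, 129.8 and 128.5 bp (-6.23 ± 1.35 bp, limma adjusted p = 0.000176). In the bin 2300-2399 bp the values were 129.3, 128.9, 130.5 and 127.3 bp against 131.5, 136.5, 135.4 and 136.0 bp (-5.86 ± 1.37 bp, limma adjusted p = 0.000371). The vrn1-4 FRI and WT FRI libraries did not overlap in any of the 14 bins after cold. Overlap was not counted over the other bins of FLC, so this is not shown to be particular to the stretch. In the warm, 0 of 14 bins passed (limma, 5 at an unadjusted p under 0.05), where 4.12% of all bins did, 3.09% lower and 1.03% higher. The smallest p in the warm was in the bin 1800-1899 bp, with 125.3, 121.4 and 125.1 bp in vrn1-4 FRI against 126.3, 126.0 and 130.0 bp in WT FRI (limma adjusted p = 0.226). Without WT FRI warm replicate 2, the library with the fewest distinct fragments, 11 of 14 bins passed in the warm. Bins over all of FLC were not counted in that setting.

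In WT FRI, fragments were longer after cold than in the warm in 11 of 14 bins (limma), where 92.8% of all bins of FLC passed. The limit on the bin p-values given above applies here too. The 3 bins that did not pass were 1300-1399, 2000-2099 and 2100-2199 bp. The bin 1200-1299 bp had 129.3, 132.3, 132.2 and 131.9 bp in WT FRI 1W cold against 126.2, 120.6 and 127.8 bp in WT FRI warm (6.58 ± 1.52 bp, SE, limma adjusted p = 0.00218). The bin 1800-1899 bp had 131.3, 133.6, 132.8 and 132.4 bp against 126.3, 126.0 and 130.0 bp (5.08 ± 1.48 bp, limma adjusted p = 0.00443), and the bin 1900-1999 bp had 131.6, 129.7, 131.0 and 131.3 bp against 126.0, 123.0 and 129.2 bp (4.82 ± 1.48 bp, adjusted p = 0.00563). In these 3 bins all WT FRI 1W cold libraries lay above all WT FRI warm libraries. Without WT FRI warm replicate 2, 5 of 14 bins passed, and bins over all of FLC were not counted in that setting. In vrn1-4 FRI 0 of 14 bins passed (limma, 0 also at an unadjusted p under 0.05), where 1.03% of all bins did, and the smallest p was in the bin 1800-1899 bp, with 127.2, 126.1, 129.1 and 124.4 bp after cold against 125.3, 121.4 and 125.1 bp in the warm (adjusted p = 0.445). The change with cold was not shown to differ between genotypes in any of the 14 bins (0 at an unadjusted p under 0.05, with 1.03% of all bins called). The smallest p was that of the bin 1200-1299 bp (-4.22 ± 2.15 bp, SE, limma adjusted p = 0.395).

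**Figure D3:**
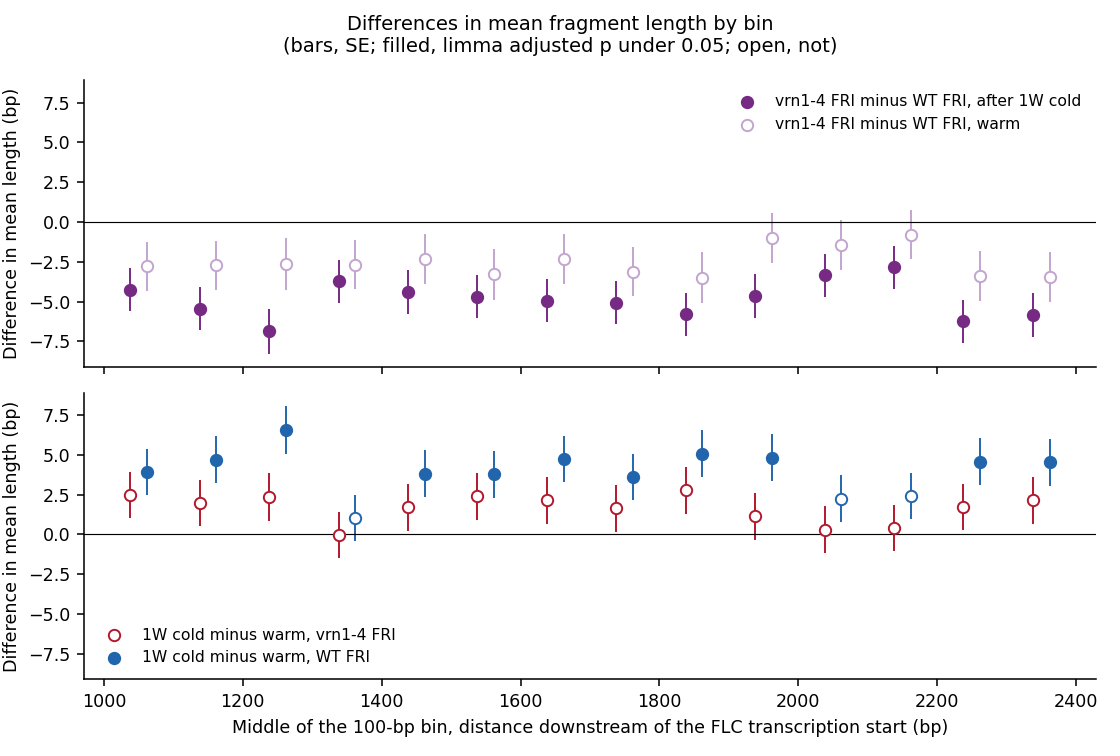
Differences in mean fragment length in bp between genotypes (top) and between temperatures (bottom) for the 14 bins of 100 bp, by distance from the FLC TSS. Points are limma estimates with SE, filled where the adjusted p was under 0.05. All 14 bins are filled and below 0 for vrn1-4 FRI minus WT FRI after 1W cold, and 11 are filled and above 0 for 1W cold minus warm in WT FRI.

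The shares of single bins differed between vrn1-4 FRI and WT FRI in both temperatures, mostly in bins on either side of the dense block. The bin 1700-1799 bp, next to the block on the side away from the TSS, passed in neither temperature (limma adjusted p = 0.262 after cold and 0.229 in the warm). After cold, 6 of 14 bins passed the test (2 higher and 4 lower in vrn1-4 FRI, limma on log2 share, adjusted p under 0.05), where 46.4% of all 97 bins of FLC did, 15.5% higher and 30.9% lower. In the warm, 4 of 14 passed (2 higher and 2 lower), where 38.1% of all bins did, 9.28% higher and 28.9% lower. The 6 and 4 bins are 42.9 and 28.6% of the stretch, below the share over FLC in both temperatures. The bins 1300-1399, 1800-1899 and 2200-2299 bp passed in both temperatures with the same sign, which is 75% of the bins called in the warm and 50% of those called after cold. The 2 comparisons share no library, but they use the same estimate of the spread in each bin and are not separate tests. Over all of FLC, 29 bins passed in both, 78.4% of those in the warm and 64.4% of those after cold. The median log2 difference over the stretch was -0.17 after cold and -0.10 in the warm, beside -0.14 and -0.10 over all bins.

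The bin 1300-1399 bp, the flank of the block that faces the TSS, had less of the FLC fragments in vrn1-4 FRI. Its share was 0.305, 0.378 and 0.383% in vrn1-4 FRI warm, against 0.925, 0.796 and 0.797% in WT FRI warm. No library of either group came near the other. The log2 difference was -1.22 ± 0.18 (SE, limma adjusted p = 0.000879), the smallest p of all 97 bins in that comparison. After cold the bin had 0.364, 0.468, 0.572 and 0.408% in vrn1-4 FRI, against 0.530, 0.824, 0.768 and 0.733% in WT FRI (log2 difference of -0.65 ± 0.16, limma adjusted p = 0.00605). Here the groups overlapped through vrn1-4 FRI replicate 3 and WT FRI replicate 1. The change with cold was 0.58 ± 0.24 more positive on the log2 scale in vrn1-4 FRI than in WT FRI (limma adjusted p = 0.576), which does not pass. In steps of 20 bp, most of the difference lay in the step 1380-1399 bp, around the maximum at 1385 bp. This step held 0.116, 0.183, 0.204 and 0.180% in vrn1-4 FRI 1W cold and 0.0987, 0.116 and 0.133% in vrn1-4 FRI warm. It held 0.181, 0.433, 0.383 and 0.378% in WT FRI 1W cold and 0.520, 0.370 and 0.369% in WT FRI warm. The next step, 1400-1419 bp, averaged 0.284 and 0.220% in vrn1-4 FRI after cold and in the warm, against 0.412 and 0.428% in WT FRI. The steps were chosen after the values were seen and were not tested.

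The bin 2200-2299 bp, just before the sharp maximum at 2310 bp, was also lower in vrn1-4 FRI. It held 0.471, 0.527, 0.604 and 0.355% in vrn1-4 FRI 1W cold, against 0.639, 0.945, 0.852 and 0.789% in WT FRI 1W cold. The log2 difference was -0.72 ± 0.15 (SE, limma adjusted p = 0.00364). In the warm it held 0.347, 0.445 and 0.379% in vrn1-4 FRI against 0.642, 0.627 and 0.629% in WT FRI (-0.69 ± 0.18, limma adjusted p = 0.00739). The genotypes did not overlap in either temperature. The bins 1200-1299 and 2300-2399 bp were lower in vrn1-4 FRI after cold as well, by -0.50 ± 0.14 and -0.37 ± 0.14 (log2, SE, limma adjusted p = 0.0138 and 0.0363). The call of the bin 2300-2399 bp was lost without vrn1-4 FRI replicate 1, 2 or 4 or WT FRI replicate 2, 3 or 4 (limma adjusted p of up to 0.117), and with each library centred on its median bin (-0.18, limma adjusted p = 0.231).

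Of the sparse bins behind the block, those at 1800-1899 and 1900-1999 bp were higher in vrn1-4 FRI, each in at least 1 temperature, while those at 2000-2099 and 2100-2199 bp had negative log2 differences that did not pass (-0.09 after cold and -0.10 in the warm, and -0.38 and -0.33). The bin 1800-1899 bp had 0.334, 0.367 and 0.374% in vrn1-4 FRI warm, against 0.232, 0.251 and 0.271% in WT FRI warm (log2 difference of 0.50 ± 0.10, SE, limma adjusted p = 0.00293). After cold it had 0.358, 0.314, 0.342 and 0.318% in vrn1-4 FRI against 0.315, 0.258, 0.262 and 0.281% in WT FRI (0.25 ± 0.09, limma adjusted p = 0.0354), where the groups just overlapped. This call after cold was lost without vrn1-4 FRI replicate 1 or 3 or WT FRI replicate 2, 3 or 4 (0.21 to 0.31 over the 8 libraries left out in turn, limma adjusted p of 0.00992 to 0.107). The bin 1900-1999 bp had 0.472, 0.496, 0.407 and 0.498% in vrn1-4 FRI 1W cold, against 0.364, 0.315, 0.336 and 0.355% in WT FRI 1W cold (0.44 ± 0.11, limma adjusted p = 0.00698), with no overlap. In the warm that bin had 0.497, 0.643 and 0.534% in vrn1-4 FRI against 0.488, 0.491 and 0.393% in WT FRI, which did not overlap but did not pass (0.28 ± 0.13, limma adjusted p = 0.0916). Its highest point lay at 1904 bp in all 7 vrn1-4 FRI libraries, and at 1903 bp in 3, 1911 to 1912 bp in 2 and 1958 bp in 2 of the 7 WT FRI libraries.

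**Figure D4:**
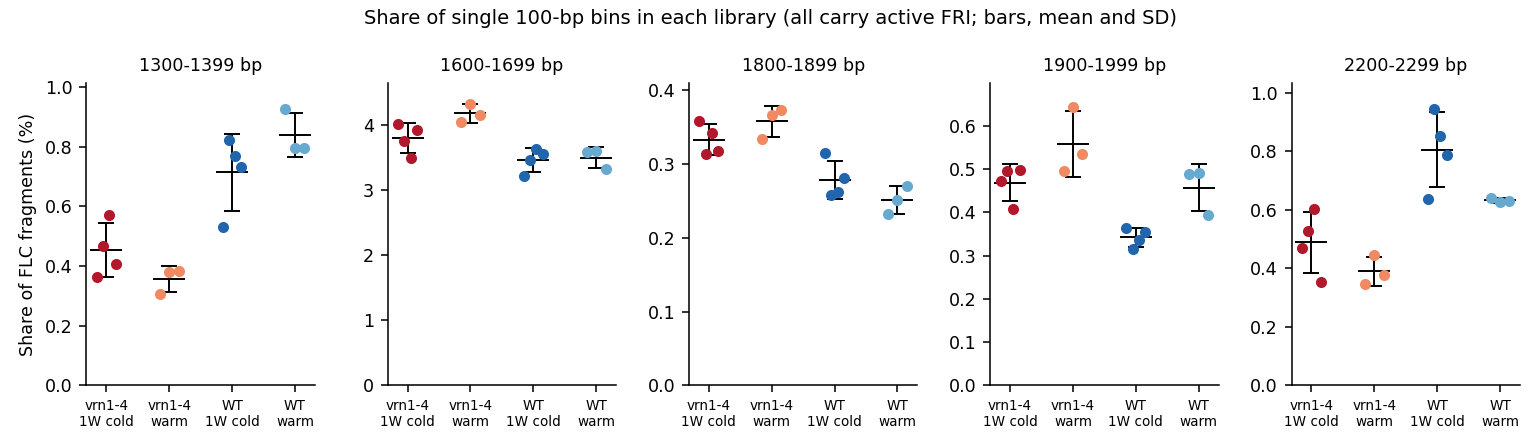
Share of FLC fragments in percent in 5 bins of 100 bp, for each library (points) with the group mean and SD (bars), from left to right vrn1-4 FRI 1W cold, vrn1-4 FRI warm, WT FRI 1W cold and WT FRI warm. The bins 1300-1399 and 2200-2299 bp are lower in vrn1-4 FRI and the bins 1800-1899 and 1900-1999 bp higher, with the values in the text.

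Of the 3 bins of the dense block, the bin 1600-1699 bp passed in the warm and no other passed between genotypes. The bin 1500-1599 bp, the densest, had 3.77, 4.01, 3.42 and 3.05% in vrn1-4 FRI 1W cold and 2.92, 3.72 and 3.51% in vrn1-4 FRI warm. WT FRI 1W cold libraries had 3.28, 3.97, 4.89 and 4.67% and WT FRI warm libraries 4.97, 3.83 and 3.59%. The genotypes overlapped after cold and in the warm, and neither difference passed (log2 -0.23 ± 0.15 after cold and -0.28 ± 0.17 in the warm, limma adjusted p = 0.221 and 0.228). The bin 1600-1699 bp had 4.05, 4.33 and 4.16% in vrn1-4 FRI warm against 3.59, 3.60 and 3.32% in WT FRI warm (0.26 ± 0.09, limma adjusted p = 0.0417). The groups did not overlap, but the call was lost whichever of the 6 libraries was left out (0.22 to 0.28, limma adjusted p of 0.0554 to 0.126). After cold it had 4.02, 3.75, 3.50 and 3.93% in vrn1-4 FRI against 3.22, 3.47, 3.63 and 3.56% in WT FRI (0.13 ± 0.08, adjusted p = 0.187). The emptiest bin, 2000-2099 bp, had 0.110, 0.106, 0.122 and 0.123% in vrn1-4 FRI 1W cold and 0.119, 0.0960 and 0.0971% in vrn1-4 FRI warm. It had 0.108, 0.136, 0.133 and 0.118% in WT FRI 1W cold and 0.112, 0.105 and 0.117% in WT FRI warm, so it was sparse in each library and none of the comparisons passed.

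No bin of the stretch passed the test of a change in share with cold in either genotype. In vrn1-4 FRI 0 of 14 bins passed (limma, 0 at an unadjusted p under 0.05), where 0% of all bins did. The smallest p was in the bin 1900-1999 bp, with the values given above and a log2 difference of -0.24 ± 0.12 (SE, limma adjusted p = 0.284). In WT FRI 0 of 14 bins passed (limma, 4 at an unadjusted p under 0.05), where 4.12% of all bins did, 2.06% higher and 2.06% lower. The smallest p in WT FRI was in the bin 2300-2399 bp, with 1.03, 1.10, 1.02 and 1.10% after cold against 0.748, 0.579 and 0.918% in the warm (0.52 ± 0.15, limma adjusted p = 0.0536), which did not overlap. The vrn1-4 FRI libraries had 0.861, 0.846, 0.933 and 0.655% in this bin after cold and 0.700, 0.619 and 0.728% in the warm. Without WT FRI 1W cold replicate 1, or without WT FRI warm replicate 3, 2 bins of the stretch passed in WT FRI. Bins over all of FLC were not counted in those settings. No bin of FLC passed the test of a difference between genotypes in the change with cold (limma, 0% of bins, 1 of 14 at an unadjusted p under 0.05).

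**Figure D5:**
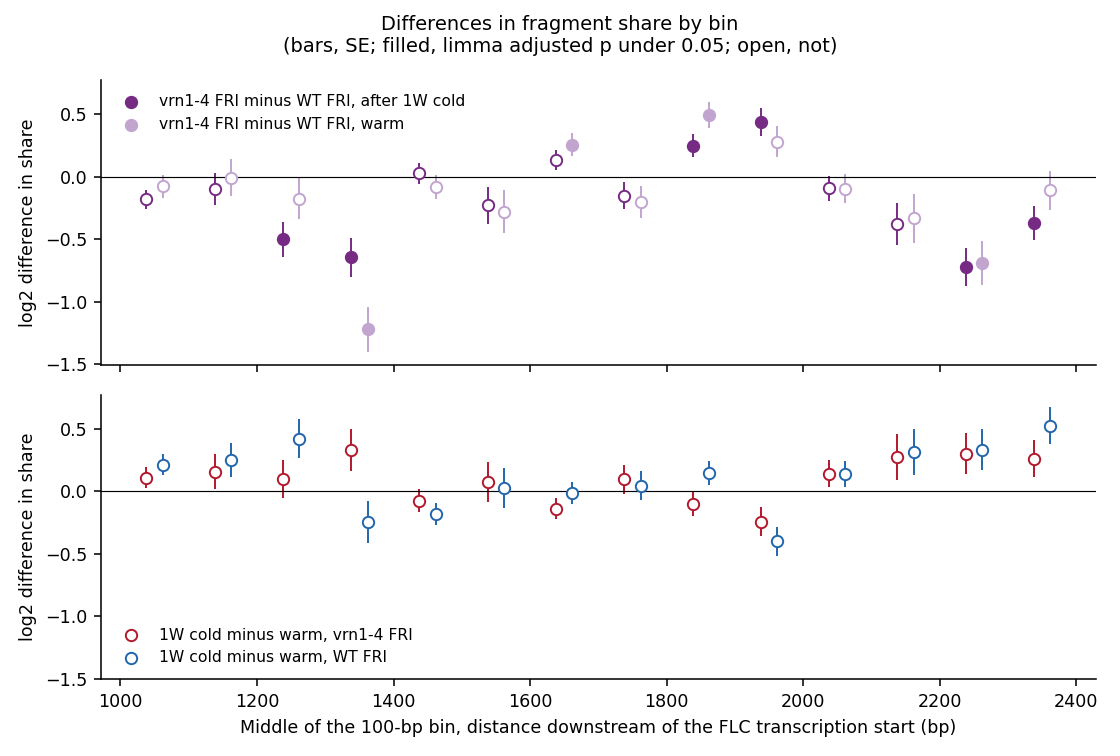
Differences in log2(share + 0.0001) between genotypes (top) and between temperatures (bottom) for the 14 bins of 100 bp, by distance from the FLC TSS. Points are limma estimates with SE, filled where the adjusted p was under 0.05. For vrn1-4 FRI minus WT FRI, 6 bins are filled after 1W cold and 4 in the warm, and no bin is filled for 1W cold minus warm.

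The genotype differences of single bins depended on how fragments were weighted. With each distinct fragment counted once, 0 of 14 bins passed after cold and 2 in the warm, 1300-1399 bp (log2 -0.66, limma adjusted p = 0.00727) and 1800-1899 bp (0.42, limma adjusted p = 0.0270). That weighting also depends on the depth of each library. With lengths of 120 to 150 bp only, which leaves out the short fragments that were more frequent in vrn1-4 FRI, 5 bins passed after cold and 3 in the warm. Bins over all of FLC were not counted in either setting. With those lengths the difference in the bin 1300-1399 bp was -1.30 in the warm and -0.64 after cold, and in the bin 2200-2299 bp -0.77 and -0.86. Centring each library on its median bin, an alternative chosen after seeing the data, moved every log2 difference by 0.24 in the warm and 0.20 after cold. The bin 1300-1399 bp was then at -0.98 and -0.45 and the bin 2200-2299 bp at -0.45 and -0.53, all past the threshold. Of the bins of the stretch then called, 3 of 5 were higher in vrn1-4 FRI in the warm and 2 of 5 after cold. Over all bins, higher calls were 16 of 31 in the warm and 20 of 37 after cold, beside 9 of 37 and 15 of 45 without the centring.

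No difference in the positional contrast of the stretch passed the test. The contrast averaged 1.16 ± 0.0784 (SD, n = 4) in vrn1-4 FRI 1W cold, 1.26 ± 0.0169 (n = 3) in vrn1-4 FRI warm, 1.08 ± 0.0697 (n = 4) in WT FRI 1W cold and 1.17 ± 0.118 (n = 3) in WT FRI warm. The smallest p was for cold against warm in vrn1-4 FRI (-0.103, exact permutation test, p = 0.0571, 0.286 adjusted over the 15 tests).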

How the data were processed

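MNase-seq fragments of FLC from 14 libraries were used, each assigned to its group and replicate from its sample label. The authors trimmed adaptors with fastp, mapped the pairs with Bowtie2 (TAIR10), separated the loci with SAMtools 1.5, rebuilt fragments of 100 to 150 bp and deposited, for each distinct fragment, a fraction of all FLC fragments of its library. Fragment length in bp was deposited beside it. Whether PCR duplicates were removed is not given in the sources used here, and 0 columns of values were left aside. All 237 FLC baits matched the reference sequence at their stated TAIR10 coordinates. Sequences were read from the RefSeq copy of TAIR10.

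Members were fragments by midpoint. Shares and frequency-weighted lengths were summed in 97 bins of 100 bp counted from the TSS with a mean share of at least 0.0001, and log2(share + 0.0001) or mean length was fitted with limma 3.58.1 (R 4.3.3) over 14 libraries in 4 groups, with Benjamini-Hochberg adjustment over the bins of each comparison and a threshold of 0.05. The log2 scale understates differences of sparse bins. Share, mean length and positional contrast were set against each other by exact permutation (two-sided), adjusted over 15 tests, and neighbouring parts of the intron by exact sign-flip tests, adjusted over 6. The labels call the replicates biological. The members and lists were chosen with earlier results of these data known. Values per library are given for the bins that passed (up to 3 of smallest p per comparison, or the 1 of smallest p), the densest and emptiest bins, the 3 most frequent fragments and the maxima of the profile. Bins described beyond this rule were chosen after their values were seen. Scripts used Python 3.11.15 with pandas 2.3.3 and scipy 1.17.1, and were tested on simulated data. Alternatives included other weights, lengths, borders, bins, pseudocounts, scalings and left-out libraries.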

Additional observations from a re-analysis of the deposited data

Results flagged for a closer look

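Of the 26 groups of 4 libraries examined, 1 held a library far from the other 3 by Dixon's test, which chance alone would do for a few percent of such groups. In the bin 1200-1299 bp, WT FRI 1W cold replicate 1 had a mean fragment length of 129.3 bp, while the other WT FRI 1W cold libraries had 131.9 to 132.3 bp.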

How the results depend on the processing

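Some genotype differences kept their direction and their side of the threshold under every alternative that left the borders of the bins unchanged. For length after cold, these were the bins 1200-1299, 2200-2299 and 2300-2399 bp. For share in the warm, they were the bins 1300-1399 and 1800-1899 bp. A grid moved by 50 bp and bins of 200 bp have other borders, so single bins were not followed there. With intron 1 in place of FLC as the total, the differences in share reversed, to -0.899 points for cold in WT FRI, -1.20 for cold in vrn1-4 FRI, and 1.17 and 0.869 for vrn1-4 FRI minus WT FRI in the warm and after cold. With each distinct fragment counted once, the share differed by -0.132 points with cold in vrn1-4 FRI and by 0.0119 between genotypes in the warm. The positional contrast then differed by -0.0122 between genotypes in the warm, and by 0.0405 in the change with cold. The stretch against its neighbours gave a log2 density of 0.0146 (start of the intron) and -0.0245 (3′ part), a contrast of 0.00305 and a length of 0.0523 bp. The counts of bins passing on share were 2 in the warm and 0 after cold. With lengths of 120 to 150 bp only, the difference in the change of share with cold was 0.0156 points, the contrast differed by -0.000563 between genotypes in the warm and by 0.0263 in the change with cold, and 1 bin passed for cold in WT FRI. That count was also 1 with a pseudocount of 0.001 or bins of 200 bp, and 3 with only the 2 groups compared in the fit. Bins of 200 bp gave 2 and 3 bins between genotypes in the warm and after cold. A grid moved by 50 bp gave 1 bin with a length difference in the warm.

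Leaving out 1 library at a time gave -0.378 to 0.650 points for the share with cold in vrn1-4 FRI, -2.01 to -1.13 between genotypes after cold, and -0.984 to 0.0440 for the change with cold. The length difference with cold in WT FRI was 2.76 to 5.27 bp, and with 6 libraries left the smallest p allowed is above the threshold. The contrast in the change with cold was -0.0736 to 0.0444. Bins passing on share for cold in WT FRI were 0 to 2, and bins passing on length were 5 to 13 for cold in WT FRI and 0 to 11 between genotypes in the warm. The cause of these changes was not tested. Apart from the centring on the median bin, bins passing in the alternatives were counted for the stretch only.

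Same-numbered libraries correlated over 0.1 in 0 of 3 (cold in WT FRI) and 2 of 3 pairs (cold in vrn1-4 FRI). Between genotypes it was 1 of 3 in the warm and 3 of 4 after cold. They were treated as unpaired in the main tests, and so few pairs cannot show whether equal numbers mark a shared batch. With the replicate block, 3 bins passed on share for cold in WT FRI, the change of share with cold differed by 0.133 points, and the length differences were 4.10 bp (cold in WT FRI, exact p = 0.25) and -5.07 bp (genotype after cold, exact p = 0.125), the smallest p that 3 and 4 pairs allow. The bins 1600-1699 bp in the warm and 1800-1899 bp after cold did not pass on share with the block (limma adjusted p = 0.0858 and 0.0626). Precision by depth was not worked out, since totals were not given.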
